A study of Mus musculus with 47 samples.

Results

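The polo-like kinase genes Plk1, Plk2, Plk3, Plk4 and Plk5 were followed through the cerebral cortex of 47 mice of 6 genotypes. All 5 were found by name among 48795 genes, and all 5 were among the 19174 genes with enough reads to be tested. The family was chosen from a measured value: Plk5 had been among the genes lower with the Q140 allele in an earlier analysis of these mice. The Q140 differences of all 5 genes are therefore given as a description, and no test of them is used, while the Ccdc82, interaction and sex comparisons were tested.

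All mice were 6 months old, on a background the labels give as C57BL. The groups were wild type (WT, 8 mice), Ccdc82+/- (8), Ccdc82-/- (8), Q140 (8), Q140 x Ccdc82+/- (8) and Q140 x Ccdc82-/- (7), with 4 females and 4 males in each but the last, which had 3 females and 4 males. In Q140 mice the mouse huntingtin gene holds a long CAG tract, as in Huntington's disease, and the titles call these animals heterozygous knock-ins; the crosses set loss of 1 or both copies of Ccdc82 beside both copies, with and without the Q140 allele. RNA came from whole dissected cortex, so fewer cells of a type and less RNA per cell cannot be told apart in any value below. Libraries are numbered by genotype and sex in their titles, and each was counted as a separate mouse; p-values measure the spread between these samples.

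Polo-like kinases are serine/threonine kinases that bind their partners through a polo-box domain. Plk1 drives entry into and passage through mitosis, and Plk4 starts the duplication of centrioles. Plk2 and Plk3 are, in neurons, induced by synaptic activity as immediate early genes are, and Plk2 phosphorylates synaptic proteins such as the Rap regulator Sipa1l1 (SPAR). Plk5 is found mainly in the brain and keeps its polo box but has little or no kinase activity.

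Library totals lay between 43554594 and 61370843 reads assigned to genes, with a median of 50473683. Ccdc82 followed its labels: it was at 14.3 to 19.1 CPM (counts scaled to the library total) in WT and 13.8 to 16.9 in Q140, at 9.72 to 13.2 in the 16 mice with 1 lost copy, and at 4.64 to 6.3 in the 15 mice with both lost. Markers of excitatory cortical neurons were present, with Slc17a7 at 205 to 240 FPKM (fragments scaled by gene length and library total) and Neurod6 at 29.9 to 45 FPKM. The lowest of the 12 listed was Foxp2, at 0.089 to 0.476 FPKM. The means of 10 dentate granule cell markers ran from 0.023 FPKM (Dsp) to 5.4 FPKM (Lrrtm4), with Prox1 at 1.63 to 2.17 FPKM and C1ql2 at 0.0623 to 2.04. Those of 10 hippocampal CA markers ran from 0.0626 FPKM (Iyd) to 108 FPKM (Dkk3). Whether the samples held hippocampal tissue was not tested.

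Per length, Plk2 was the leading family member in every genotype. Its mean over the 47 mice was 74.9 FPKM ± 5.13 (SD), 82.6% of the family's summed FPKM, and only 490 of the 19174 tested genes had a higher mean. Plk5 stood at 7.58 FPKM ± 1.29 and Plk3 at 7.07 ± 0.964, or 8.36% and 7.8% of the family. The 2 cell division kinases were scarce: Plk4 had 0.645 FPKM ± 0.0755 and Plk1 0.459 ± 0.0962, which rested on a mean of 224 and 51.1 reads a library. These levels placed Plk2 at percentile 97.4 of the tested genes, Plk5 at 66.4, Plk3 at 64.6, Plk4 at 23.4 and Plk1 at 19.2.

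The start sites of the 2 activity-linked kinases are shown with that of Plk5, because Plk2 and Plk3 varied together from mouse to mouse and Plk5 did not vary with them. RefSeq promoters on GRCm38.p6, each of 300 bases from 250 before to 50 after the start site, were matched for all 5 genes. Capitals mark the core of the cAMP response element, TGACG on either strand, and the cell cycle homology letters TTTGAA on either strand; the full element TGACGTCA holds the core once on each strand.
Plk2, chr13:110394794-110395093, plus strand: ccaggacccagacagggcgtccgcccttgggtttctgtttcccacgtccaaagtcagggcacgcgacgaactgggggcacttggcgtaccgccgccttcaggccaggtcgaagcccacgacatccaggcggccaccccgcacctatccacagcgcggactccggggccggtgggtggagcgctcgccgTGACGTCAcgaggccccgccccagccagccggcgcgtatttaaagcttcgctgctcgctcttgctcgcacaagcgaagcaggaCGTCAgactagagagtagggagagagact
Plk3, chr4:117133914-117134213, minus strand: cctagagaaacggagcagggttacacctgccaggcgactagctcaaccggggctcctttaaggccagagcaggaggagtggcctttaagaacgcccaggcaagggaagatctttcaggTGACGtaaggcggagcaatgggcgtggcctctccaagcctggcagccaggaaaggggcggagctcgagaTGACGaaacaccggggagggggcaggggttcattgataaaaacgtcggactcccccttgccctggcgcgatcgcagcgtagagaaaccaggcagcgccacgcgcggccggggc
Plk5, chr10:80356209-80356508, plus strand: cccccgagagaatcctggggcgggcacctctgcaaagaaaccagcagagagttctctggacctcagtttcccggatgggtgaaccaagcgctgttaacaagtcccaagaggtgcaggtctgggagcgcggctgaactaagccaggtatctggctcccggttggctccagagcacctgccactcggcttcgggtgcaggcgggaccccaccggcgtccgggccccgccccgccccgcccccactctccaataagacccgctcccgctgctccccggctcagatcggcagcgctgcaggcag

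The window of Plk2 holds the full element TGACGTCA once, letters found in 1.79% of 32851 promoters of the same length, and the core 3 times, 2 of them within the full element. That of Plk3 holds the core 2 times and no full element, and 20.8% of all promoters hold the core. The Plk5 window holds neither, and has the Sp1 letters GGGCGG 4 times on either strand (35.7% of promoters hold them). The Sp1 letters also occur 2 times in the window of Plk2 and 1 time each in those of Plk3 and Plk1, and not in that of Plk4. Of the cell division kinases, Plk4 has the core once, and Plk1 has no core but TTTGAA once, as 17.9% of promoters do. These are matches of letters and not measured binding, and their part in the variation between mice was not tested.

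Plk5 (ENSMUSG00000035486) lies on chromosome 10, 80356459 to 80365489 of GRCm38, plus strand, with 15 exons in its principal protein-coding transcript. In WT mice it was at 7.27, 9.46, 7.83 and 10.2 FPKM in the females and 7.20, 9.70, 9.18 and 8.36 FPKM in the males. In Q140 mice it was at 6.32, 8.49, 7.52 and 6.24 FPKM in the females and 7.5, 5.96, 6.42 and 6.66 FPKM in the males. The ranges of these 2 groups overlapped, with 5 of the 8 Q140 mice below the lowest WT mouse.

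On the Ccdc82+/- background Plk5 ranged from 6.86 to 10.5 FPKM (median 7.96) without the Q140 allele and from 5.44 to 8.05 FPKM (median 6.69) with it. On the Ccdc82-/- background it ranged from 6.77 to 9.43 FPKM (median 8.45) without the allele and from 4.91 to 7.39 FPKM (median 6.48) with it. These ranges overlapped too, with 5 of 8 and 4 of 7 mice below the lowest of their background. The mean levels therefore fell into 2 blocks. WT (8.65 FPKM ± 1.15), Ccdc82-/- (8.38 ± 0.834) and Ccdc82+/- (8.21 ± 1.24) came first, and Q140 (6.89 ± 0.863), Q140 x Ccdc82+/- (6.80 ± 0.963) and Q140 x Ccdc82-/- (6.40 ± 0.82) followed. The step of 1.32 FPKM between the blocks was the only one between neighbours in this order that exceeded the larger of their SDs.

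**Figure D1:**
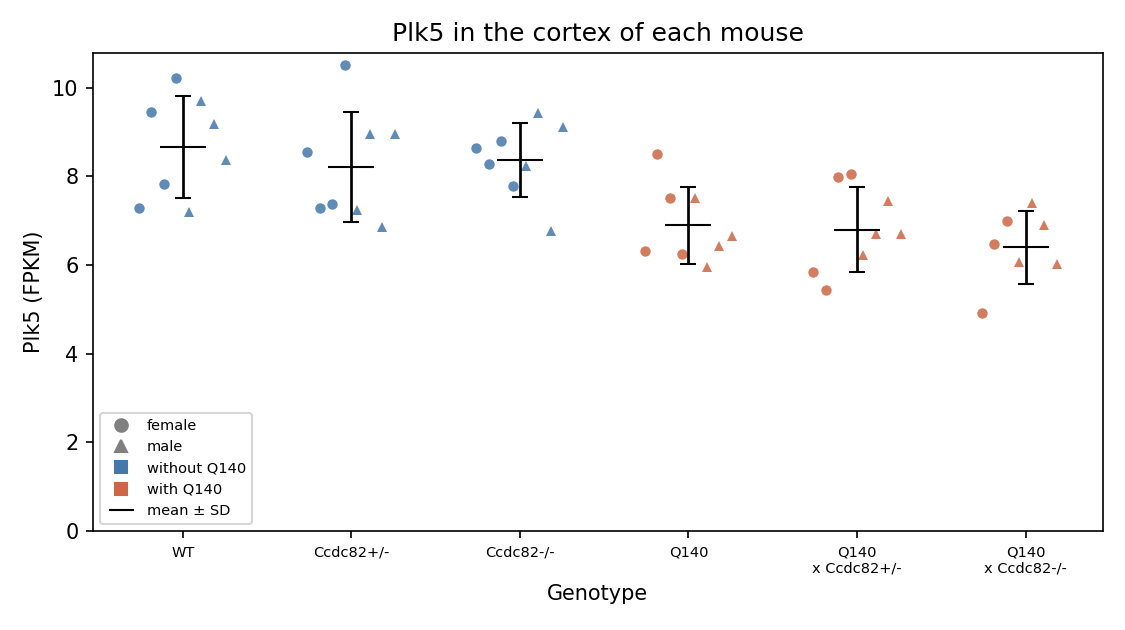
Plk5 level in FPKM (vertical axis, from 0) in each of 47 mice, by genotype (horizontal axis). Circles are females, triangles males, blue without and orange with the Q140 allele, and black bars the group mean ± SD. The 3 groups with Q140 have means of 6.40 to 6.89 FPKM and the 3 without it 8.21 to 8.65 FPKM.

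Over all mice Plk5 was at 8.41 FPKM ± 1.06 (n = 24) without the Q140 allele and 6.71 ± 0.873 (n = 23) with it. All 23 mice with the allele lay below the mean of the mice of the same sex and Ccdc82 genotype without it, and 14 of them lay below the lowest of the 24. In the fit of all genes the log2 difference with Q140 was -0.34 (SE 0.054) averaged over the Ccdc82 genotypes, which is a level 20.8% lower. It was -0.33 (SE 0.092) against WT, -0.28 (SE 0.093) on Ccdc82+/- and -0.39 (SE 0.097) on Ccdc82-/-. These values led to the choice of the family and are not counted as evidence. As background only, by the threshold of an adjusted p under 0.05 in edgeR's quasi-likelihood test, 1 of the 5 family members and 0.876% of all tested genes (168 genes, 65 higher and 103 lower) were called in the averaged comparison; with Plk5 chosen from it, nothing is read from that count. On log2(FPKM + 0.1) with limma the split was 81 higher and 80 lower.

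What the choice did not use was whether that difference varied with Ccdc82 or with sex. For Plk5 the interaction of Q140 with Ccdc82-/- was -0.063 on the log2 scale (SE 0.134, 95% interval -0.325 to 0.199), and with Ccdc82+/- it was 0.050 (SE 0.131, interval -0.207 to 0.307). Neither was past the threshold (adjusted p = 1 for both in edgeR's quasi-likelihood test), but the first interval reaches nearly as far below 0 as the Q140 difference itself, so a sizeable change with Ccdc82 was not detectable. The Q140 difference in females minus that in males was -0.026 (SE 0.114, interval -0.25 to 0.199; adjusted p = 1, edgeR). In the 23 females and the 24 males analysed apart, the Q140 difference of Plk5 was -0.35 and -0.33.

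None of the 5 family members was called for either interaction, and 0% of all genes were called for the interaction with Ccdc82-/-, 0% for that with Ccdc82+/- and 0% for the difference of the Q140 effect between the sexes (edgeR's quasi-likelihood test). At an unadjusted p under 0.05 these comparisons held 567, 674 and 769 genes, and 0 family members. DESeq2 and the limma fits called 0 genes in all 3 as well.

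Plk2 (ENSMUSG00000021701) lies on chromosome 13, 110395046 to 110400844, plus strand, in 14 exons. Its level ranged from 64.8 to 92.5 FPKM (median 76.2) in WT, 70.4 to 78.9 (median 75.3) in Ccdc82+/- and 66 to 82.4 (median 75.6) in Ccdc82-/-. With the Q140 allele it ranged from 69.6 to 76.7 FPKM (median 74.9) alone, 64.2 to 82.6 (median 74.9) with Ccdc82+/- and 69.5 to 79.0 (median 73.9) with Ccdc82-/-. All 6 ranges overlapped, and the highest mouse, WT male 1 at 92.5 FPKM, stood above all others. The Q140 log2 difference averaged over Ccdc82 genotypes was -0.041 (SE 0.030), with a 95% interval of -0.1 to 0.019.

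Plk3 (ENSMUSG00000028680) lies on chromosome 4, 117128655 to 117133963, minus strand, in 15 exons. On the other strand it overlaps Tctex1d4, which had a median of 0 over the 47 mice and reached at most 0.0788 FPKM. Plk3 ranged from 6.42 to 8.51 FPKM (median 7.22) in WT, 5.89 to 8.16 (median 6.96) in Ccdc82+/- and 4.32 to 8.16 (median 7.28) in Ccdc82-/-. With the Q140 allele the ranges were 6.01 to 7.83 FPKM (median 7.02) alone, 4.45 to 8.44 (median 7.25) with Ccdc82+/- and 6.28 to 7.69 (median 6.85) with Ccdc82-/-. Genotypes overlapped throughout, while single mice stood low, among them Ccdc82-/- female 1 (4.32 FPKM) and Q140 x Ccdc82+/- female 1 (4.45 FPKM). The averaged Q140 difference was -0.050 (SE 0.064; interval -0.175 to 0.0746).

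Plk4 (ENSMUSG00000025758) lies on chromosome 3, 40800019 to 40816883, plus strand, in 16 exons. Its order of means was Q140 x Ccdc82-/- (0.688 FPKM ± 0.0965), Ccdc82-/- (0.67 ± 0.0869), Ccdc82+/- (0.651 ± 0.0652), Q140 x Ccdc82+/- (0.641 ± 0.0578), WT (0.625 ± 0.0843) and Q140 (0.598 ± 0.0408). Every step between neighbours was smaller than their SDs and all neighbouring ranges overlapped. The averaged Q140 difference was -0.026 on the log2 scale (SE 0.046; interval -0.115 to 0.0638).

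Plk1 (ENSMUSG00000030867) lies on chromosome 7, 122159439 to 122169873, plus strand, in 10 exons, and overlaps the transcript Gm44985 (0.082 FPKM on average) on the other strand. Reads on it ranged from 28 to 75 a library, and its level from 0.258 FPKM (Q140 male 1) to 0.661 FPKM (Q140 x Ccdc82+/- female 4). Group means lay between 0.443 and 0.489 FPKM, with SDs of 0.0631 to 0.114, and the order of the groups held no step beyond these SDs. The averaged Q140 difference was -0.0034 (SE 0.093) with a 95% interval of -0.186 to 0.18, the widest of the family.

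**Figure D2:**
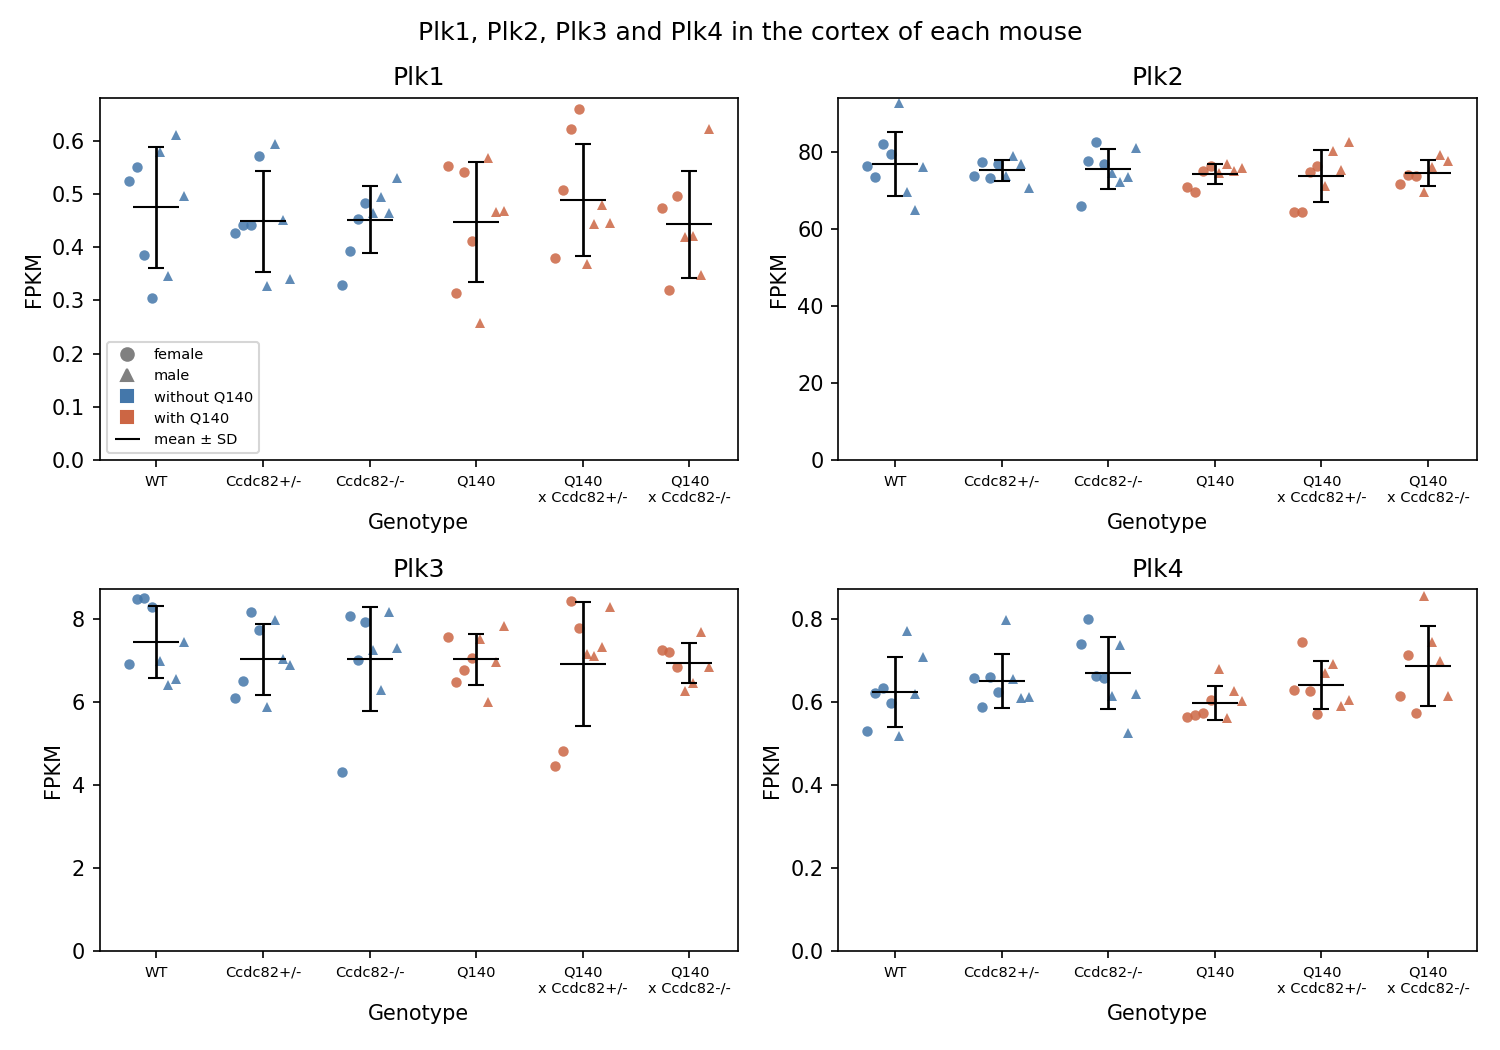
Levels of Plk1, Plk2, Plk3 and Plk4 in FPKM (vertical axes, each from 0) in each of 47 mice, by genotype (horizontal axes). Circles are females, triangles males, blue without and orange with the Q140 allele, and black bars the mean ± SD. In each panel the ranges of all 6 genotypes overlap, and Plk2 reaches 92.5 FPKM in 1 WT male.

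Loss of Ccdc82 was then tested for all 5 kinases. None was called for Ccdc82-/- averaged over Q140 status, against 0.00522% of all genes (1 gene, Ccdc82 itself), nor for Ccdc82+/-, against 0.00522% (again Ccdc82); DESeq2 and the limma fits called no family member either. Plk4 was the member furthest from 0. In WT and Q140 mice together, with both copies of Ccdc82, Plk4 ranged from 0.518 to 0.771 FPKM (median 0.604, n = 16), in mice with 1 copy from 0.571 to 0.798 (median 0.628, n = 16) and in mice with none from 0.525 to 0.855 (median 0.663, n = 15). The ranges overlapped widely. Above the mean of the mice with both copies, of the same sex and Q140 status, lay 12 of 15 Ccdc82-/- and 11 of 16 Ccdc82+/- mice. The fitted difference was 0.15 (SE 0.056, interval 0.0398 to 0.26) for Ccdc82-/- and 0.079 (SE 0.055, interval -0.0292 to 0.188) for Ccdc82+/-.

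Among the averaged Ccdc82 comparisons, the interactions, sex and Q140 by sex, the Ccdc82-/- difference of Plk4 was the only family value with an unadjusted p under 0.05. That level was reached by 892 genes in that comparison, and over all genes the adjusted p of Plk4 was 1 in edgeR's quasi-likelihood test. Plk5 differed by -0.075 (SE 0.067, interval -0.206 to 0.0561) in Ccdc82-/- mice. Plk2 differed by -0.010 (SE 0.037) and Plk3 by -0.051 (SE 0.078). Plk1 differed by -0.043 (SE 0.115).

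**Figure D3:**
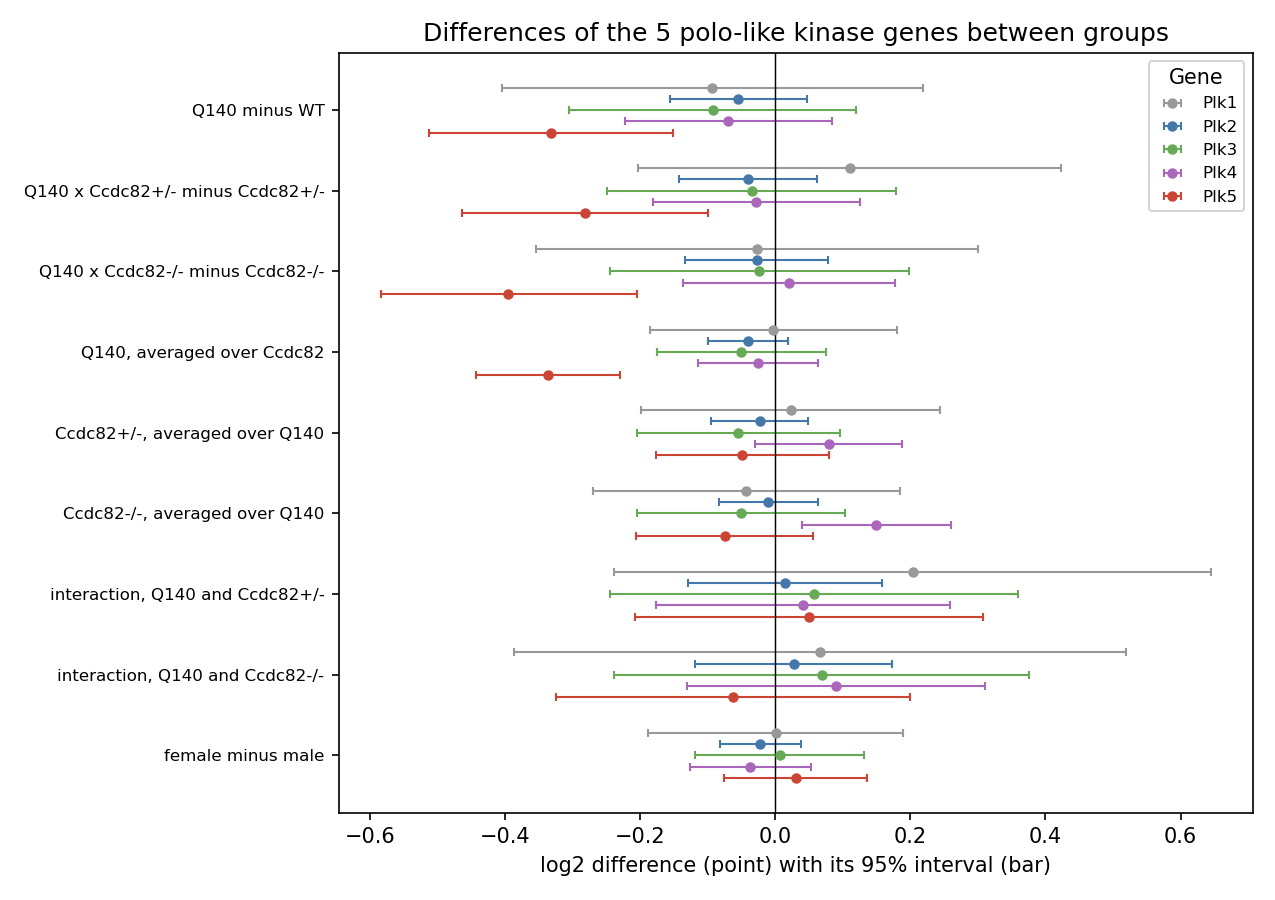
Fitted log2 differences (points) with 95% intervals (bars) of the 5 polo-like kinase genes, for 9 comparisons on the vertical axis. Plk5 in red lies at -0.28 to -0.39 in the Q140 comparisons, which shared the values that chose the family, and every other interval but that of Plk4 in Ccdc82-/- (0.0398 to 0.26) covers 0.

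Sex was past the threshold for many genes but for none of the kinases. In all, 10.5% of genes (2018, of which 1010 were higher and 1008 lower in females; 805 and 1410 on log2(FPKM + 0.1) with limma) were called between females and males by edgeR's quasi-likelihood test, and 0 of 5 family members, with 0 at an unadjusted p under 0.05 and 0 by DESeq2 and the limma fits. Plk5 was at 7.66 FPKM ± 1.42 in the 23 females and 7.5 ± 1.18 in the 24 males, a log2 difference of 0.030 (SE 0.054, adjusted p = 0.772, edgeR). Plk2 differed by -0.022 (SE 0.030), Plk3 by 0.0066 (SE 0.064), Plk4 by -0.037 (SE 0.046) and Plk1 by 0.00059 (SE 0.096). The number in the library names, whose meaning is not given, took 19 values, and all mice with 1 number were of 1 sex. Mice that shared it deviated together (mean r 0.142 over 45 pairs, against -0.0256 for other pairs), and with it as a random block in limma 865 genes were called for sex. The spread of Plk3 was wider in females (SD 1.22 FPKM) than in males (0.655 FPKM); this difference in spread was not tested.

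The kinases varied from mouse to mouse within a genotype and sex, and all but Plk4 more than most genes of like level, Plk1 by little. The residual SD of log2 CPM, after genotype and sex, was 0.229 for Plk3, above 97% of the 500 tested genes nearest in mean FPKM, whose median was 0.0767. Plk5 had 0.19 (above 95.8% of its 500, median 0.0746) and Plk2 0.107 (above 91.8%, median 0.0527). Plk4, at 0.155, was above only 10.2% of its 500 (median 0.246), and Plk1, at 0.323, above 62%.

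This residual variation followed different genes for different kinases. All correlations below are Spearman's rho of residual log2 CPM over the 47 mice, given as a description with no test; the values share their libraries and scaling, and mice can share dissection and handling. With the library total the kinases had rho between -0.198 (Plk3) and 0.183 (Plk4). Plk2 and Plk3 went together (rho 0.485). Plk1 and Plk4 went opposite ways (rho -0.472), and Plk5 had rho of -0.0469 to 0.151 with the other four.

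Among 40 immediate early and activity-regulated genes, 34 had rho above 0.3 with Plk2, against 15.5% of all other tested genes, and the median was 0.604 against -0.0089. Bdnf, a neurotrophin gene, and Dusp6, a phosphatase of ERK, both had 0.775, and Egr1, an activity-induced zinc finger factor, had 0.751. Of the same 40 genes 31 had rho above 0.3 with Plk3, against 7.87% of all genes (median 0.462), led by the clock gene Per1 (0.816), the kinase Sik1 (0.779) and the pseudokinase Trib1 (0.777). Not all of the list moved this way: with Plk2, Sgk1 had rho -0.19, Jun -0.171 and Btg2 -0.0949, and the activity factor Npas4 had 0.104 with Plk2 and -0.0624 with Plk3.

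Plk5 did not share this pattern. None of the 40 genes had rho above 0.3 with it, against 7.59% of all genes, and the median was -0.0206. For Plk4 the median was -0.239, with 17 of 40 below -0.3 against 13.7% of all genes, and for Plk1 it was 0.166, with 14 of 40 above 0.3 against 10.6%.

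**Figure D4:**
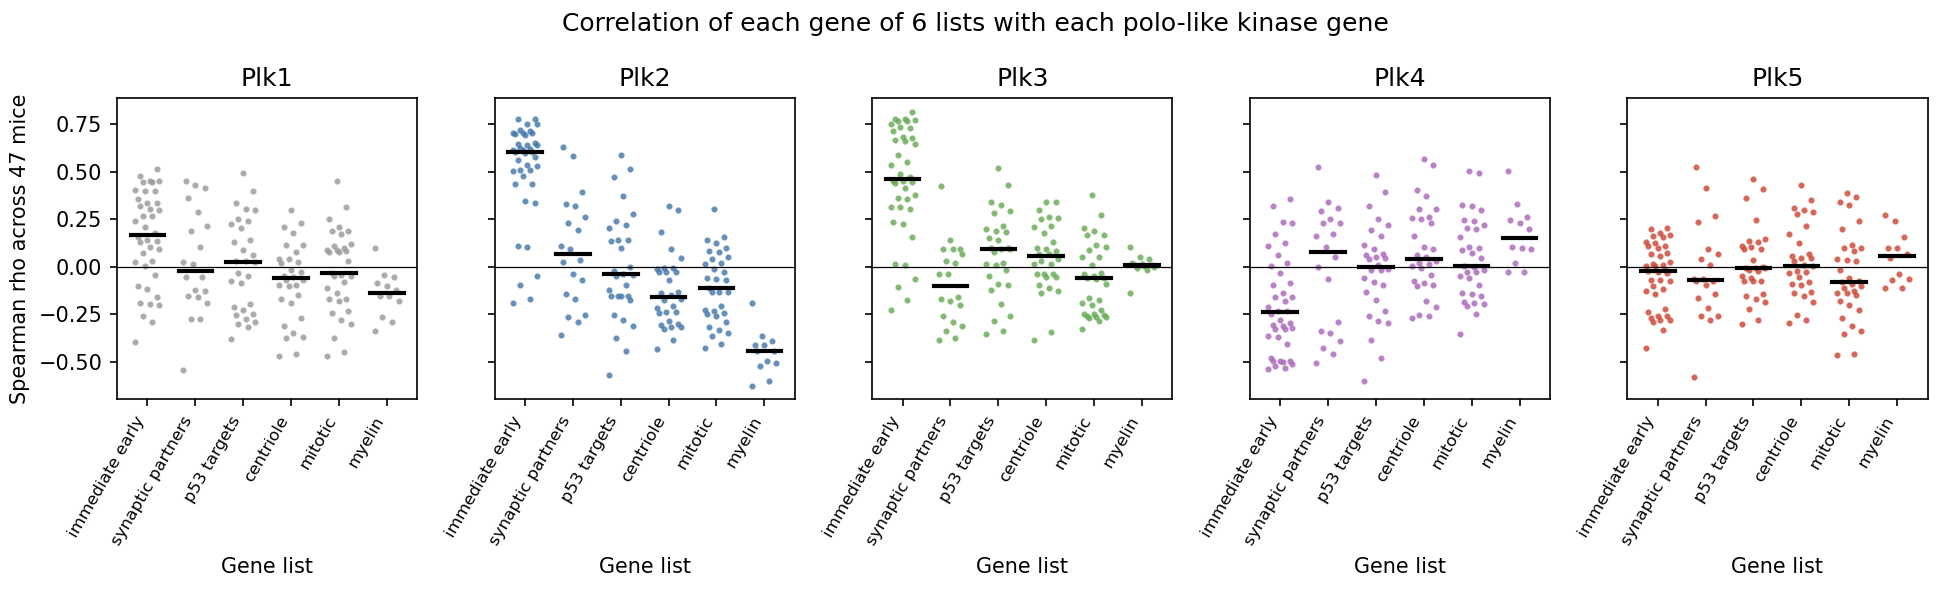
Spearman's rho over 47 mice (vertical axis) between each gene of 6 lists (horizontal axis) and each of the 5 polo-like kinase genes (panels). Points are genes of a list and black lines the list medians. The immediate early list has a median of 0.604 with Plk2 and 0.462 with Plk3, and -0.0206 with Plk5.

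Whether the promoter letters shown above play a part in variation with the immediate early list was not tested. Plk4, whose window also holds the core, had a median rho of -0.239 with that list. Taking the 40 genes as 1 mean per mouse, Pearson's r was 0.854 with Plk2 and 0.725 with Plk3 (rho 0.754 and 0.722), and -0.0161 with Plk5 (rho -0.0238). Without the 2 mice farthest from the median of that mean, r was 0.82 for Plk2 and 0.669 for Plk3. Within mice without and with the Q140 allele r was 0.905 and 0.784 for Plk2, and 0.595 and 0.879 for Plk3. Within females and males r was 0.823 and 0.879 for Plk2, and 0.879 and 0.577 for Plk3. For Plk5 the values differed in sign: r was -0.3 without and 0.306 with Q140, and 0.228 in females and -0.311 in males. At the low end stood Q140 x Ccdc82+/- female 1, with a list mean of -0.747 on the log2 scale, Plk3 at -0.599 and Plk2 at -0.182 relative to genotype and sex. At the high end, WT male 1 had a list mean of 0.631 and Plk2 at 0.268, but Plk3 at -0.0863.

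**Figure D5:**
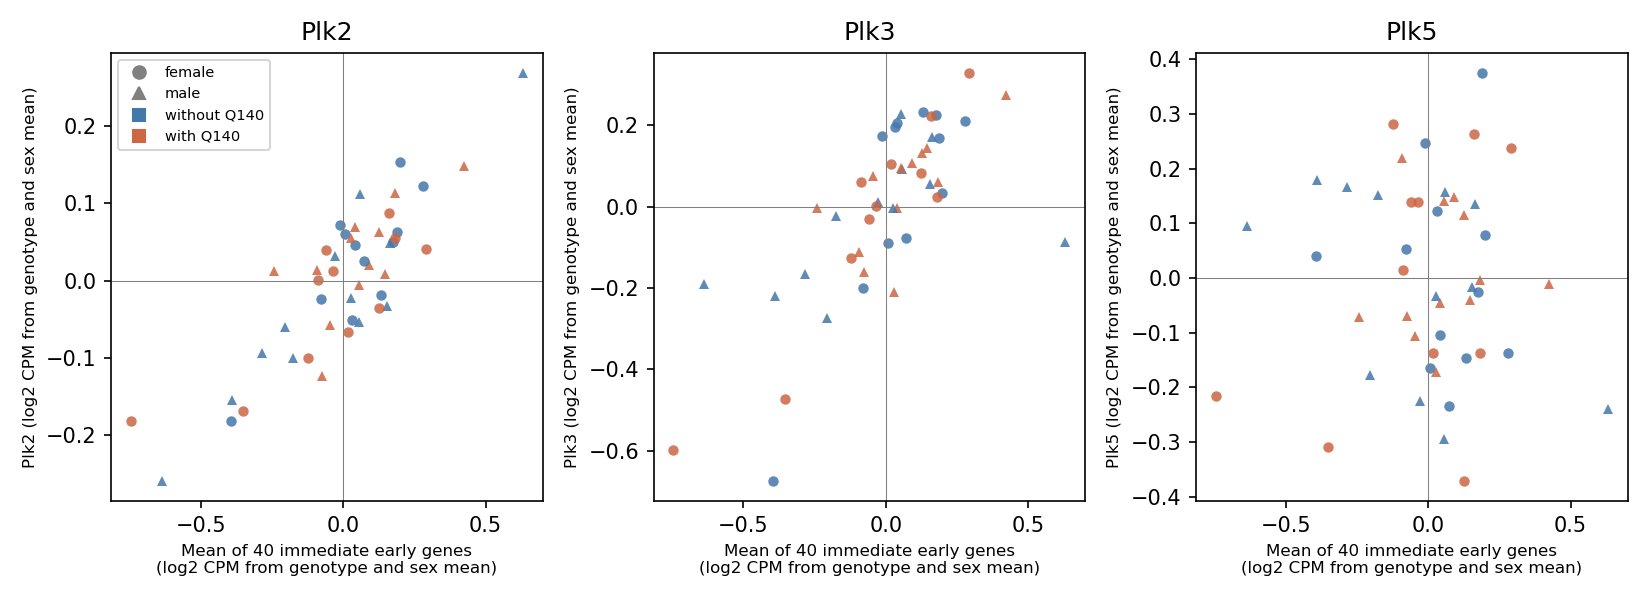
Residual log2 CPM of Plk2, Plk3 and Plk5 (vertical axes) against the mean residual of 40 immediate early genes (horizontal axes) in each of 47 mice. Circles are females, triangles males, blue without and orange with the Q140 allele. High values go together for Plk2 (r 0.854) and Plk3 (r 0.725) and not for Plk5 (r -0.0161).

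No gene of the immediate early list was called for a genotype. Of all genes, 0.876% were called for Q140, and 0.00522% each for Ccdc82-/- and Ccdc82+/- averaged over Q140 status. With Q140, 32 of its 40 genes lay below 0 with a median log2 difference of -0.060 (all genes 0.00085), 0 were called by edgeR's quasi-likelihood test, and the smallest p belonged to Npas4 (-0.44, SE 0.13, adjusted p = 0.116). The median was -0.16 for Q140 against WT, 0.041 on Ccdc82+/- and -0.11 on Ccdc82-/-. For the interaction with Ccdc82+/- it was 0.24 (all genes -0.00039), with 36 of 40 genes above 0 and 0 called (edgeR). Most of these genes varied with Plk2 from mouse to mouse, so such counts are not of 40 separate observations. Plk2 and Plk3 had 0.014 (SE 0.073) and 0.058 (SE 0.154) in that interaction. In females against males 5 of 40 fell and 0 rose (Sgk1, Btg2, Fos, Jun and Junb), a share near that of all genes. Fos, a subunit of the AP-1 factor, fell by 0.40 (SE 0.134, adjusted p = 0.0451, edgeR; lower in 19 of 23 females). With the library-name block Sgk1 was called and the other four were not (adjusted p = 0.0625 to 0.112, limma). Of these 5, Sgk1, Btg2 and Jun were also among the list genes with the lowest rho with Plk2.

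By the same measure of likeness, the 5 genes nearest to each kinase were named. Nearest to Plk5 was Gabrd (rho 0.777), the delta subunit of the GABA-A receptor that carries tonic inhibition, before Cchcr1 (0.74), the neuronal myosin Myo16 (0.706), the keratin Krt12 (0.667) and the zinc finger factor Tshz1 (0.657). Gabrd ranged from 24.2 to 30.4 FPKM (median 27.7, n = 24) without the Q140 allele and from 24.3 to 28 FPKM (median 25.9, n = 23) with it. It was the only one of these 5 genes that passed the threshold for Q140, where 0.876% of all genes were called. It fell by 0.11 (SE 0.021, adjusted p = 0.000885, edgeR's quasi-likelihood test), and lay below the matched mean in 23 of 23 mice. In females and males apart, with fewer mice, it was not called (adjusted p = 0.258 and 0.147, edgeR). The ranges overlapped, and the change was smaller than that of Plk5. Gabrd was named for its likeness to Plk5, which was chosen from this same comparison, so its fall is not counted as separate evidence. Cchcr1 differed by -0.067 (SE 0.035, adjusted p = 0.588) and Myo16 by 0.0033 (SE 0.034, adjusted p = 0.991) in the same edgeR test.

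Nearest to Plk2 were Sertad1 (rho 0.852), the synaptotagmin Syt4 (0.85), the translation factor Eif1b (0.824), the basic helix-loop-helix repressor Bhlhe40 (0.818) and the insulin receptor substrate Irs2 (0.799). Nearest to Plk3 were Per1 (0.816), the cell adhesion receptor Pvr (0.804), Midn (0.781), Sik1 (0.779) and the ephrin receptor Ephb3 (0.779). None of these 10 genes passed the threshold for Q140 in edgeR's quasi-likelihood test, with a smallest adjusted p of 0.721 (Syt4). That count says little beside the 0.876% of all genes called for Q140. For Plk4 the nearest were Zfp112 (0.679), the myelin glycoprotein gene Omg (0.669), Mtmr7 (0.661), Gm9776 (0.66) and Tmem196 (0.655). For Plk1 they were Slc25a37 (0.669), Csdc2 (0.637), Slfn5 (0.636), Imp4 (0.631) and Ryk (0.63).

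The partners of the kinases were counted next. Of 40 mitotic partners and targets of Plk1, 33 had enough reads; Cdk1, Aurkb, Cdc25c, Bub1, Ube2c, Sgol1 and Pbk did not. With Q140, 2 of the 33 rose and 0 fell, where 0.876% of all genes were called. Anln, an actin-binding scaffold of the cleavage furrow that oligodendrocytes also express, rose by 0.37 (SE 0.057, adjusted p = 0.000121, edgeR), in 22 of 23 mice above the matched mean, and Tpx2, a spindle assembly factor, by 0.25 (SE 0.051, adjusted p = 0.00387, edgeR), also in 22 of 23; with the sexes analysed apart, and so with fewer mice, Anln was not called in females (adjusted p = 0.257) and Tpx2 in neither sex (0.174 and 0.452, edgeR). The summed FPKM of 12 oligodendrocyte and myelin markers was 359 to 553 (median 416) with and 317 to 521 (median 435) without the allele, and its part in the Anln value was not tested. The list's median was -0.0041, beside 0.00085 over all genes. Between the sexes 3 rose in females (Kif20a, Kif11 and Ccnb1) and 1 fell (Cdc25b), beside 10.5% of all genes. None of the 4 was called with the library-name block (adjusted p = 0.0665 to 0.0892, limma). Kif20a and Ccnb1 were scarce, with means of 0.0806 and 0.0499 FPKM, and had no adjusted p in DESeq2. For the Ccdc82 comparisons 0 of 33 were called, beside 0.00522% of all genes in each. For the interactions 0 of 33 were called, beside 0% of all genes.

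All 30 centriole duplication factors that work with Plk4 were tested, and 0 were called for Q140, Ccdc82-/- or Ccdc82+/- (edgeR). That count says little beside the 0.876% of all genes called for Q140 and 0.00522% for each Ccdc82 comparison. For Ccdc82-/-, where Plk4 had its largest difference, the list's median was 0.0067 beside -0.00069 over all genes. The smallest p there belonged to Pcm1, a centriolar satellite scaffold (0.055, SE 0.018, unadjusted p = 0.00438, adjusted p = 1). In females 3 of the 30 fell, a share near the 10.5% of all genes: Pcnt by 0.091 (SE 0.02), Cep57 by 0.10 (SE 0.026) and Cep135 by 0.087 (SE 0.025), with adjusted p of 0.00259, 0.00794 and 0.0188 in edgeR's quasi-likelihood test. They were lower in 22, 20 and 18 of 23 females, and Cep135 was not called with the library-name block (adjusted p = 0.0691, limma).

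Of 20 synaptic partners and substrates of Plk2 and Plk3, 0 were called for Q140 or either Ccdc82 comparison. That count says little beside the 0.876% of all genes called for Q140 and 0.00522% for each Ccdc82 comparison. The list's median Q140 difference was 6.69e-06. Nearest to the threshold with Q140 were the GTPase gene Hras (-0.047, SE 0.015, adjusted p = 0.143) and App, the amyloid precursor (-0.030, SE 0.0096, adjusted p = 0.151, both edgeR). Among the genes called between the sexes, Dlg4, the scaffold PSD-95, rose in females by 0.069 (SE 0.014, adjusted p = 0.000689, higher in 21 of 23), and the exchange factor Rasgrf1 fell by 0.089 (SE 0.014, adjusted p = 2.96e-05, lower in 22 of 23), both by edgeR. With Plk2, the highest rho in this list was that of Rap1b (0.629), and 5 of 20 genes were above 0.3 against 15.5% of all genes.

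Plk2 and Plk3 are also known as p53 targets. Of 30 p53 target genes, 1 rose with Q140, where 0.876% of all genes were called: Eda2r, an ectodysplasin receptor, by 0.73 (SE 0.131, adjusted p = 0.000714, edgeR). It lay above the matched mean in 22 of 23 mice, and in males alone it was not called (adjusted p = 0.385, edgeR). Eda2r was near the floor, with a mean of 0.0519 FPKM, and its difference was 0.0359 on log2(FPKM + 1) with limma. Between the sexes 4 of 30 were called beside 10.5% of all genes: Zmat3 rose in females and Trp53inp1, Ddit4 and Btg2 fell, of which Ddit4 and Btg2 were not called with the library-name block (adjusted p = 0.0855 and 0.0625, limma). The list's median Q140 difference was 0.0024, and 4 of its 30 genes had rho above 0.3 with Plk2, led by the cell cycle inhibitor Cdkn1a (0.587), against 15.5% of all genes.

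The whole dissected cortex holds other cells and may hold bordering regions, so marker sums are given beside these results. With the Q140 allele the summed FPKM of 12 cortical excitatory markers was 892 to 987 (median 946), and without it 948 to 1010 (median 976). Of these 12 only Camk2a, at a mean of 558 FPKM the bulk of the sum, fell, and 6 lay above and 6 below 0. That of 12 astrocyte markers was 1160 to 1340 (median 1200) with and 1200 to 1400 (median 1280) without the allele, and that of 14 striatal markers 79.9 to 91.6 (median 85) and 80.4 to 100 (median 86.3). For 10 dentate granule cell markers the sums were 16.6 to 21.2 (median 18.1) with and 16.4 to 20.8 (median 17.9) without it. For 10 hippocampal CA markers they were 177 to 212 (median 196) with and 177 to 216 (median 189) without the allele. For 10 meningeal fibroblast markers they were 17.2 to 44.6 (median 33) with and 18.7 to 40.7 (median 32) without it. All 10 meningeal markers lay above 0 with Q140 averaged over Ccdc82 genotypes (median log2 difference 0.133), and 0 were called. The backgrounds differed: the median was 0.342 against WT and 0.176 on Ccdc82-/-, but -0.0957 on Ccdc82+/-, where 9 of 10 lay below 0. Of the astrocyte markers 4 of 12 fell with Q140 (Slc1a2, Aldoc, Glul and Kcnj10; edgeR's quasi-likelihood test) and 0 rose, where 0.876% of all genes were called. No marker in these lists was at 0 in all mice, and the part of any cell type in the Plk5 difference was not tested.

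Plk5 had a median rho of 0.0966 with the cortical excitatory markers, 4 of 12 above 0.3 (highest Neurod2, 0.479) against 7.59% of all genes. Its median was -0.121 with the astrocyte markers and -0.0216 with the striatal ones. Further from 0 were its medians with markers of meningeal fibroblasts (-0.207), oligodendrocyte precursors (-0.183) and dentate granule cells (-0.137). Plk2 ran against the markers of oligodendrocytes and myelin: 11 of 12 had rho below -0.3, against 13.9% of all genes, and the median was -0.445. With the mean of these 12 genes r was -0.588 for Plk2 over 47 mice and -0.512 without the 2 farthest mice. It was -0.759 and -0.315 in mice without and with the Q140 allele, and -0.355 in females and -0.755 in males. The myelin list had a median rho of 0.0085 with Plk3. Plk4 had a median rho of -0.298 with meningeal fibroblast, -0.291 with astrocyte and -0.281 with endothelial and pericyte markers. Plk1 had medians of 0.195, 0.293 and 0.213 with the same lists in that order. The part of tissue makeup in these relations was not tested.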

How the data were processed

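RNA from the cortex of 47 mice was sequenced with a stranded kit, per the labels' protocols. The deposited count table holds raw whole-number read counts per gene, and the authors' second table holds deposited FPKM values scaled by gene length and library total. Alignment and counting tools listed in the submitters' processing notes are HTSeq 0.12.3, STAR 2.7.5c and SAMtools 1.10, with the builds GRCm38 and mm10. No source used here says whether counting used strand, so reads of overlapping genes on opposite strands cannot be told apart.

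Of 48795 genes, 19174 passed filterByExpr (at least 10 reads, 15 in total) and were scaled by TMM and fitted in edgeR 4.0.16 by quasi-likelihood with genotype and sex, all libraries in 1 fit; Benjamini-Hochberg adjustment ran over all tested genes, with 0.05 as threshold. A genotype-by-sex fit gave the difference between sexes. Standard errors come from the F statistic, and 95% intervals are 1.96 SE. The fit was tested on simulated data. Correlations used residual log2 CPM (prior count 2). Alternatives used DESeq2 1.42.0 and limma 3.58.1 (log2 FPKM + 0.1 or + 1). Coordinates came from GENCODE M21 on GRCm38, promoters from RefSeq.

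The members, gene lists and tests were chosen with earlier results of these data known. Named were all family members, the 5 genes with the highest rho to each, and in each list the called genes or else those with the smallest p; others singled out were chosen after their values were seen.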

Additional observations from a re-analysis of the deposited data

Results flagged for a closer look

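Of the 30 sets of values given by 5 genes in 6 genotypes, 1 held a mouse set apart from the rest: Plk4 in the Ccdc82+/- group was at 0.798 FPKM in male 1, while the other 7 mice lay lower and close together. The gap to its nearest neighbour was more than Dixon's 95% critical value for 8 samples. Chance alone sets apart about 1 in 20 such groups. Without this mouse the Plk4 difference for Ccdc82+/- averaged over Q140 status was 0.058 in place of 0.079.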

How the results depend on the processing

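The 7 comparisons were repeated under 11 other settings and with each of the 47 libraries left out. For the 30 member results that were tested, 0 calls appeared in 295 repeats and in 1175 repeats without 1 library, and the lowest adjusted p among them was 0.445; Q140 by sex was not repeated with libraries left out. The Q140 difference of Plk5 ran from -0.29 (limma on log2(FPKM + 1)) to -0.35 (females only), and from -0.352 to -0.317 with 1 library left out. Genes called for Q140 numbered 19 in females only and 19 in males only, with fewer mice in each fit, all 19 of each among the 168. Genes called for sex numbered 865 with the number in the library names, shared by mice of 1 sex, as a random block (correlation 0.142); the cause was not tested. Titles number the mice within genotype and sex, and same-numbered mice did not deviate together (mean r 0.00684 over 115 pairs, against -0.0217 for other pairs). With the title number as a replicate block 154 genes were called for Q140 and Plk5 had -0.33. The block and the fit without sex gave no value for sex.

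Signs that turned were all of differences not called, and the cause was not tested. In males only, Plk3 had 0.0123 for Ccdc82-/-, while Plk1 had -0.136, Plk2 0.00352 and Plk3 0.0421 for Ccdc82+/-; for the interaction with Ccdc82-/- Plk3 had -0.139 and Plk5 0.0207. In females only, Plk4 had -0.12 for the interaction with Ccdc82-/-, and Plk2 -0.00997 and Plk5 -0.0164 for that with Ccdc82+/-. For sex, Plk1 had -0.000118 with RLE size factors, -0.0119 with the plate column and -0.0234 with the library-name block. Plk3 had -0.00767 with that block and -0.0171 and -0.0131 on log2(FPKM + 0.1) and log2(FPKM + 1), and Plk5 had -0.00494 with the plate column. The library-name block gave -0.0173 for Plk1 in the interaction with Ccdc82-/-, -0.00359 for Plk2 in that with Ccdc82+/-, and 0.00876 for Plk5 in Q140 by sex. The plate column gave -0.00644 for Plk4 and -0.00217 for Plk5 in the interaction with Ccdc82+/-.

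The Q140 differences of Plk1 to Plk4, given without a test, crossed 0 over all settings and left-out libraries: Plk1 from -0.105 to 0.0932, Plk2 from -0.0919 to 0.00834, Plk3 from -0.113 to 0.0138 and Plk4 from -0.0736 to 0.0173.

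With 1 library left out, signs of tested differences also turned within these ranges: Plk2 for Ccdc82-/- (-0.0274 to 0.012), Plk1 for Ccdc82+/- (-0.0191 to 0.053), and for sex Plk1 (-0.0283 to 0.0267) and Plk3 (-0.0106 to 0.0329). For the interaction with Ccdc82-/- they were Plk1 (-0.0403 to 0.143), Plk2 (-0.0108 to 0.0644) and Plk3 (-0.00893 to 0.105), and for that with Ccdc82+/- Plk2 (-0.0262 to 0.0505) and Plk4 (-0.00297 to 0.0848). Depth limits Plk1 most, at 28 to 75 reads a library.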
